A study of Mus musculus with 12 samples.

Results

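The integrin and laminin genes of spindloid mammary tumour cells were examined in tumourspheres treated with inhibitors of Met and of the FGF receptors. Members were the rows of the count table whose gene symbol names an integrin alpha subunit, an integrin beta subunit or a laminin chain. The rule found 37 of the 55573 genes, 26 integrin genes (18 alpha and 8 beta) and 11 laminin genes, and it used no measured value. Cell lines A1005, A1129 and A1471 each came from a separate spindloid tumour of the MMTV-Metmt;Trp53fl/+;Cre mouse, in which the MMTV promoter drives a mutant Met transgene and Cre acts on 1 floxed Trp53 allele. All 12 libraries share this genotype, so there is no group without the transgene. Spheres of each line received the vehicle DMSO, Crizotinib (an inhibitor of the Met kinase), PD173074 (an inhibitor of the FGF receptor kinases) or both (the combination) for 24 h, and each treatment had 1 library from each line (n = 3). The culture medium itself held EGF, basic FGF and insulin.

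Integrins are receptors made of 1 alpha and 1 beta subunit that bind the extracellular matrix or other cells and link them to the actin cytoskeleton. Laminins are the main cell-binding proteins of basement membranes, and each is a trimer of 1 alpha, 1 beta and 1 gamma chain that assembles inside the cell. In the mammary gland, laminin binding through integrin alpha 3, alpha 6 and beta 4 anchors the epithelium to its basement membrane. The measurements below are of transcripts only, and they do not show which subunits were paired or which trimers were made.

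Total counts per library were 13031492 to 17750476, and no 2 of the 12 libraries were copies (lowest chi-square per degree of freedom 4.9 over 66 pairs). Of the leukocyte markers, Laptm5 and Lyz2 were at 0 in all libraries and 6 of 10 had at most 3 counts in any library, although Ptprc averaged 4.62 CPM with DMSO and 5.82 CPM with the combination and Cd68 9.04 and 14.5 CPM. Summed leukocyte markers were 4.54 to 31.5 CPM with DMSO and 8.53 to 42.3 CPM with the combination. Of the 5 platelet and megakaryocyte markers, Gp9 was at 0 and the sum was 2.42 to 10.3 CPM with DMSO and 3.45 to 13.2 CPM with the combination. This sum includes Itga2b, itself a member, at means of 3.2 and 5.68 CPM, so it is not independent of the members. Ppbp averaged 1.85 CPM with DMSO and 0.79 CPM with the combination, and Pf4 and Gp1bb had at most 7 counts in any library. The 5 endothelial markers summed to at most 0.888 CPM. Epithelial markers summed to 16.2 to 71.4 CPM with DMSO and 7.39 to 48.3 CPM with the combination, with Krt5 at 0 in all libraries and Epcam at a mean of 0.503 CPM with DMSO. Mesenchymal markers summed to 3180 to 4570 CPM and 2460 to 8490 CPM, with Cdh2 near 0 (at most 6 counts). With DMSO this sum was mostly Vim (mean 2890 CPM) and Fn1 (748 CPM), while Snai2 averaged 0.133 CPM. These sums are not scaled to exon length, so they serve to compare libraries and not marker sets. Single markers differed within these sums between DMSO and the combination. Twist1 averaged 113 and 53.2 CPM and was called lower in both edgeR fits (unpaired log2 fold change -1.09, SE 0.15, adjusted p = 0.00156), whereas Fn1 averaged 748 and 2330 CPM and was not called (adjusted p = 0.247 unpaired and 0.148 blocked). Krt19, at 14.7 and 2.08 CPM, and Krt18, at 20 and 10.2 CPM, were called lower in the blocked edgeR fit only (adjusted p = 0.000542 and 0.000225), and Krt8, at 7.06 and 12.8 CPM, was not called. Cd68 and Zeb2 were called higher and Ppbp lower in the blocked fit only. The part of these markers in the results was not tested.

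Levels are given as CPM, read counts scaled to library size by TMM, and levels of different genes are compared only as CPM per kb of exon. Where a value is given for each line, the order is A1005, A1129 and A1471. A gene is called when its adjusted p in edgeR's quasi-likelihood test is under 0.05. The unpaired fit treats the 3 lines as unrelated replicates, as the study's methods do, and the blocked fit takes out the differences between lines that all treatments share. Each log2 fold change is followed by its standard error (SE). Of the 37 members, 26 passed the filter on low counts (17 integrin and 9 laminin genes) and were tested among 13836 genes.

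With DMSO, Itgb1, the common partner of most alpha subunits, had the highest level of all members, with a mean of 207 CPM per kb and a range of 168 to 228. Next came Itga3, which binds laminins (89.4 CPM per kb, range 79.1 to 101), Lamb1 (78.2, range 39.0 to 112) and Lamc1 (72.4, range 44.0 to 102), and the ranges of these 3 neighbours overlapped with one another but not with Itgb1. Itga5, the fibronectin receptor subunit, followed with 61.4 CPM per kb, then Itgb7 with 53.9 and Lama5 with 35.7. Lama5, Lamb1 and Lamc1 made up most of their chain classes, with 93.0 ± 11%, 89.9 ± 5.49% and 96.4 ± 1.51% of the summed CPM per kb of the laminin alpha, beta and gamma chains with DMSO (SD, n = 3). At the low end of the tested members stood Itgb8 (0.243 CPM per kb), Itga1 (0.225) and Lamc3 (0.0452).

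**Figure D1:**
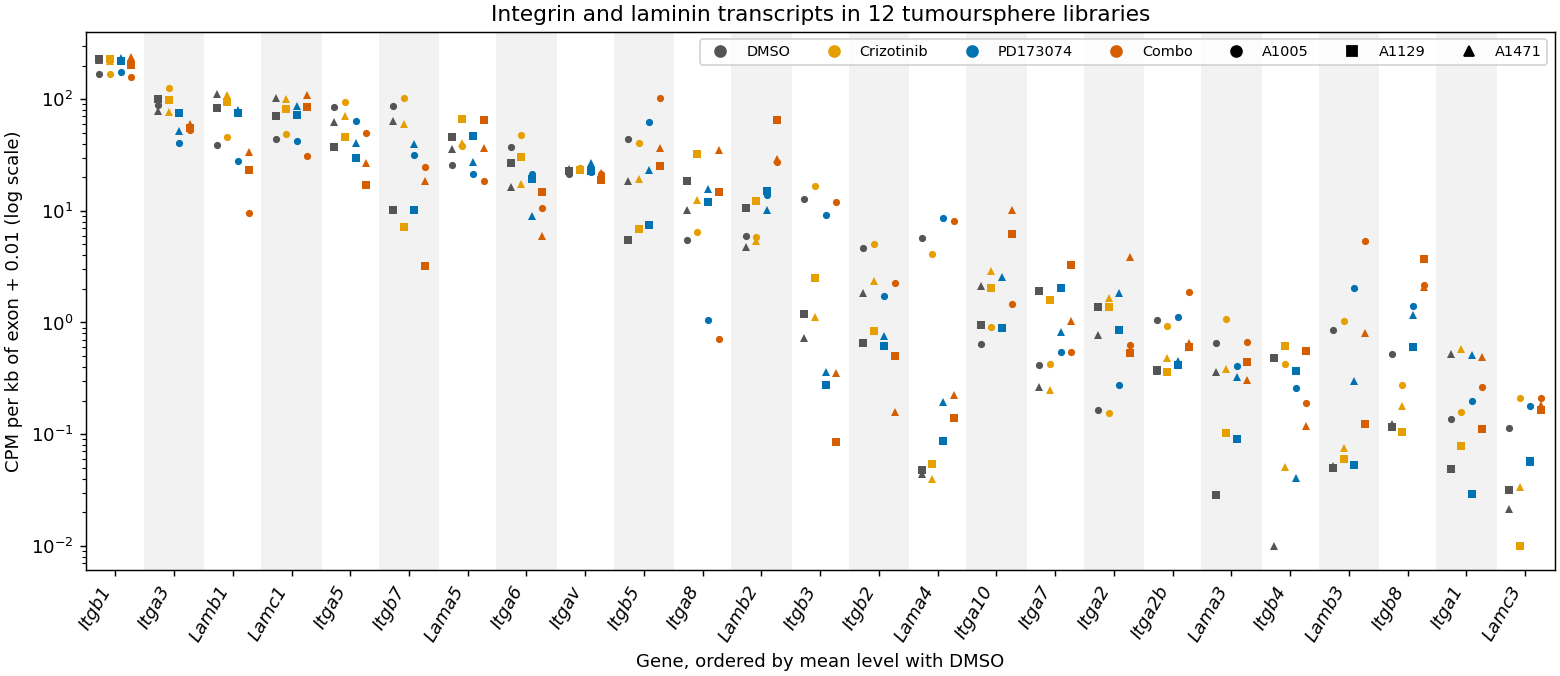
Level of 25 of the 26 tested integrin and laminin genes in each of the 12 libraries, as CPM per kb of exon plus 0.01 on a log scale; colours mark the treatment and symbols the cell line. Itgb1 and Itgav sit in narrow bands, whereas Lama4, Itgb3 and Lamb3 spread widely, with A1005 above the other lines.

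Rarely read members were given as counts, and 7 of these 11 belong to the leukocyte, alpha 4 and alpha 9 group. Itga4 and Lama1 had 0 counts in all 12 libraries. A count of 0 allows up to 3 counts in a library, which is 0.169 to 0.23 CPM of the unscaled library total, and such limits cover counting error only. Over all 12 libraries, Itgad and Itgal had 1 count each, Itgam 6, Itgb6 7, Lama2 14, Itga9 19, Itgax 21, Itga11 28 and Itgae 32. All 21 counts of Itgax, a dendritic cell and macrophage integrin, came from A1129, with 14 of them in its Crizotinib library. Itga11, a collagen receptor subunit, was at 0 counts in each DMSO library, while the combination libraries held 14, 2 and 4. Itgae, which pairs with Itgb7 in intraepithelial lymphocytes, was read 1, 1 and 0 times in the DMSO libraries, against 2, 9 and 10 times after both inhibitors. Exons of Itgam overlap those of Gm49368 over 68.7% of their length on the same strand, so its counts are uncertain.

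Transcript levels of some members differed between lines, and these levels are a description with no test, since each line is 1 tumour and its 4 libraries received different treatments. Lama4, a chain of vascular and mesenchymal laminins, was at 49.8 to 104 CPM in the 4 A1005 libraries, at 0.460 to 1.57 CPM in A1129 and at 0.359 to 2.57 CPM in A1471. Itgb3 was at 54.6 to 98.7 CPM in A1005, at 0.439 to 14.7 CPM in A1129 and at 2.04 to 6.61 CPM in A1471. Both genes separated A1005 from the other lines under every treatment. Itgb7 was lowest in A1129, with 8.84 to 28.3 CPM against 68.5 to 284 CPM in A1005 and 50.6 to 178 CPM in A1471. Itgb4, the beta subunit of hemidesmosomes, was at 1.28 to 3.36 CPM in A1005 and 2.50 to 4.29 CPM in A1129 but at 0 to 0.754 CPM in A1471, where DMSO gave 0 counts. Of the 26 tested members, the ranges over the 4 treatments did not overlap between A1005 and A1129 for 9 higher in A1005 (19.6% of all tested genes) and 6 higher in A1129 (18.6%). Between A1005 and A1471, 7 members were higher in A1005 (20.3%) and 6 in A1471 (16.1%), and between A1129 and A1471, 3 were higher in A1129 (14.1%) and 3 in A1471 (10.8%). The counts between A1129 and A1471 were thus near the share over all tested genes.

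The first comparisons ask what each inhibitor did alone. With Crizotinib, 0 of the 26 tested members were called in either direction in the unpaired or the blocked fit of edgeR, as were 0% of all tested genes in each. At an unadjusted p under 0.05 there were 0 members in the unpaired and 1 in the blocked fit (18 and 258 of the 13836 tested genes). DESeq2 and limma-voom without the block called 0 members. The 1 member was Lama5, the main laminin alpha chain, with a blocked log2 fold change of 0.43 (SE 0.18, edgeR adjusted p = 1.0). The median log2 fold change over the members was 0.17, against -0.00 over all tested genes.

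With PD173074, the unpaired edgeR fit called 0 members and 0% of all tested genes in either direction, and DESeq2 and limma-voom called 0 members. At an unadjusted p under 0.05 the unpaired edgeR fit had 2 members (Itgb8 and Itga3) and 307 of the 13836 tested genes. The blocked fit called 1 member, Lamb2, as higher (1.62% of all tested genes were called higher and 0.520% lower), and 0 members lower. Lamb2, the laminin beta 2 chain of synaptic and kidney basement membranes, was at 36.3, 63.9 and 28.7 CPM with DMSO and at 84.5, 91.4 and 61.6 CPM with PD173074. It was higher with PD173074 in 3 of 3 lines (blocked log2 fold change 0.97, SE 0.18, edgeR adjusted p = 0.0228), although the groups overlapped across lines, since A1471 with PD173074 lay under A1129 with DMSO. Leaving out A1005 or A1471 left 0 members called in the blocked fit. Itgb8, a beta subunit that pairs with alpha v and binds latent TGF-beta, was at 5.62, 1.18 and 1.24 CPM with DMSO and at 15.4, 6.58 and 12.8 CPM with PD173074. Its groups did not overlap, but its adjusted p was 1.0 unpaired and 0.0550 blocked (edgeR log2 fold change 2.11, SE 0.66, and 2.23, SE 0.51).

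The combination was then set against DMSO. In the unpaired edgeR fit, 2 members were called higher (6.10% of all tested genes were called higher), Lamb2 and Itgb8, and 0 were called lower (8.28% of all tested genes). At an unadjusted p under 0.05 there were 6 of the 26 tested members and 4002 of the 13836 tested genes. With the line as a block, 10 members were called higher (28.6% of all tested genes) and 6 lower (26.2%). The higher members included Itga2b, Itga7, Itga10, Itgb5, Itgb8, Lama4, Lamb2, Lamb3 and Lamc3, and the lower ones were Itga3, Itga5, Itga6, Itgb2, Itgb7 and Lamb1. In the blocked fit, 11 of these 16 were called after leaving out any 1 line, while Itga3, Itga7, Lama4 and Lamc3 were lost without A1129 or A1471 and Itgb2 without A1005 or A1471. Lamc3 also passed the filter on low counts only through the combination libraries. Over the members, the unpaired median log2 fold change was 0.39 (0.02 over all tested genes) and the median absolute change 0.90 (0.52). The median was -0.05 over the 17 integrin genes and 0.55 over the 9 laminin genes. In bulk RNA, fewer cells of a type and less RNA per cell cannot be told apart, for these and all later changes.

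**Figure D2:**
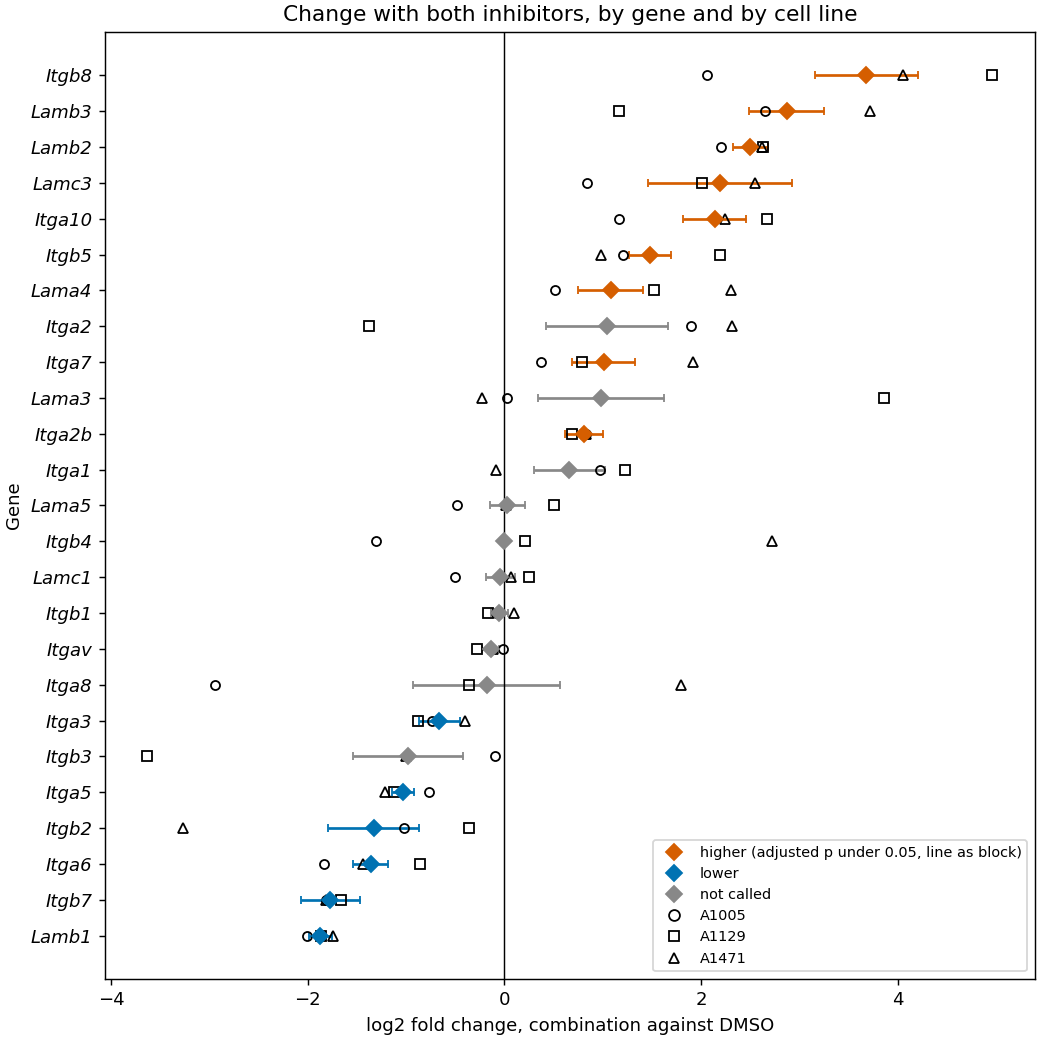
Log2 fold change of 25 of the 26 tested genes, combination against DMSO: diamonds and bars show the blocked edgeR estimate and its SE (no bar for Itgb4, whose estimate is -0.00), open symbols the change in each line, and colour the blocked call. Lamb1 and Itgb7 lie within a narrow band in 3 of 3 lines, whereas Itga8, Itgb4 and Itga2 fall on both sides of 0.

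All 3 laminin beta chains were called with the combination in the blocked fit, Lamb1 lower and the others higher. In that fit, 28.6% of all tested genes were called higher and 26.2% lower. Lamb1, the widely expressed beta chain, was at 387, 831 and 1110 CPM with DMSO and at 95.6, 228 and 331 CPM after both inhibitors. Every combination library lay under every DMSO library. The unpaired log2 fold change was -1.83 (SE 0.59, edgeR adjusted p = 0.0660) and the blocked one -1.87 (SE 0.12, adjusted p = 2.51e-06), with changes of -2.01, -1.86 and -1.74 in the 3 lines. Lamb2 was at 167, 397 and 177 CPM with the combination, above all 3 DMSO libraries, with an unpaired log2 fold change of 2.52 (SE 0.47, edgeR adjusted p = 0.00716) and a blocked one of 2.50 (SE 0.18, adjusted p = 5.08e-06). Without A1471 the unpaired adjusted p of Lamb2 was 0.110. Lamb3, the beta chain of epithelial anchoring laminin, was at 5.54, 0.263 and 0.276 CPM with DMSO and at 35.4, 0.752 and 5.28 CPM with the combination, with the highest level in A1005 in both groups. It was called in the blocked fit (log2 fold change 2.87, SE 0.38, edgeR adjusted p = 0.000172) and not in the unpaired fit (adjusted p = 0.382).

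**Figure D3:**
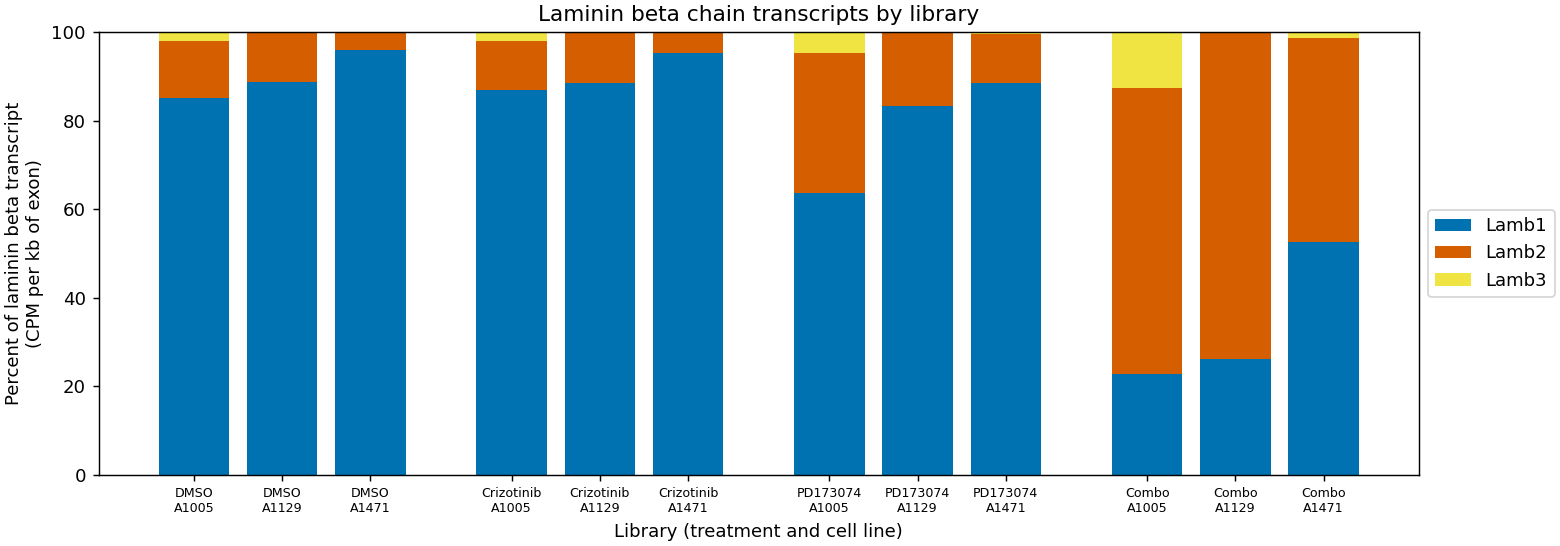
Share of Lamb1, Lamb2 and Lamb3 in the summed CPM per kb of the laminin beta chains, as stacked percent for each of the 12 libraries. Lamb1 makes up 85.1 to 95.9% with DMSO and 22.7 to 52.7% with the combination.

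Per kb of exon, the share of Lamb1 in the laminin beta transcripts was 89.9 ± 5.49% with DMSO, 90.2 ± 4.37% with Crizotinib, 78.5 ± 13.2% with PD173074 and 33.8 ± 16.4% with the combination (SD, n = 3). The share of Lamb2 was 9.38 ± 4.72% with DMSO and 61.5 ± 14.2% with the combination. The ratio of Lamb2 to Lamb1 per kb was 0.153, 0.125 and 0.0421 with DMSO, 0.5, 0.199 and 0.126 with PD173074 and 2.86, 2.83 and 0.873 with the combination. Lamb2 thus exceeded Lamb1 in 2 of 3 combination libraries, and the lowest combination ratio lay above the other 9 libraries. On the log2 scale the ratio was 0.94 ± 0.98 with the combination and -3.43 ± 1.0 with DMSO, a difference of 4.36 with p = 0.10 in a two-sided exact permutation test, the smallest p that 3 against 3 allows. The ratio was not among the planned tests, and it joins 2 chains that these same data show moving in opposite directions. Its p is therefore no separate support for those changes. The same exact permutation test gave p = 0.20 for PD173074 (difference 1.32) and p = 0.90 for Crizotinib (difference 0.01). Within lines, the combination differed from DMSO by 4.22, 4.50 and 4.37 in the log2 ratio, PD173074 by 1.71, 0.67 and 1.59, and Crizotinib by -0.26, 0.06 and 0.24. A paired exact sign-flip permutation test of these differences, added after seeing the data, gave p = 0.25 for the combination and for PD173074, the smallest that 3 pairs allow, and p = 1.0 for Crizotinib. The summed level of the beta chains was 85.7 ± 36.4 CPM per kb in the DMSO libraries and 64.7 ± 23 in the combination libraries. By line it was 45.8, 94.4 and 117 with DMSO and 42.5, 88.4 and 63.3 with the combination. The sum was thus lower in each line, most of all in A1471, and this difference was not tested.

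Among the laminin gamma chains, Lamc1, the common gamma chain, was at 364, 585 and 847 CPM with DMSO and at 257, 697 and 889 CPM with the combination. It was not called, with changes of -0.50, 0.25 and 0.07 by line (blocked log2 fold change -0.04, SE 0.15, edgeR adjusted p = 0.839). Lamc3, a minor gamma chain, was read 8, 2 and 1 times in the DMSO libraries and 22, 15 and 14 times after both inhibitors (blocked log2 fold change 2.19, SE 0.73, edgeR adjusted p = 0.0267; unpaired 0.346). Outside the combination, Lamc3 reached 10 counts only in A1005 with Crizotinib (18) and with PD173074 (17). It thus passed the filter on low counts only through the combination libraries, so its blocked call is not independent of the filter. Among the alpha chains, Lama5 had a blocked log2 fold change of 0.03 (SE 0.18, adjusted p = 0.885). Lama4 was called higher in the blocked fit (log2 fold change 1.08, SE 0.33, edgeR adjusted p = 0.0175; unpaired 0.922), where A1005 gave 876 counts for DMSO and 1750 for the combination, A1129 7 and 25, and A1471 6 and 34. Lama3, the alpha chain of anchoring laminin, was not called (blocked edgeR adjusted p = 0.212), with 89, 3 and 54 counts in the DMSO libraries and 128, 75 and 42 after both inhibitors.

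Sequence upstream of the start site is shown for the beta chains that moved in opposite directions and for Itgb5 and Itga5, which were called in opposite directions among the integrins in the blocked fit. Each stretch is RefSeq's (build GRCm38.p6), 5′ to 3′ on the gene's strand, taken from the 250 bases before the start and limited to bases that no annotated exon covers. Capitals mark GC boxes (GGGCGG on either strand). Lamb1 is at chr12:31265043-31265233 (+ strand), Lamb2 at chr9:108479612-108479735 (+), Itgb5 at chr16:33829415-33829664 (+) and Itga5 at chr15:103366792-103367041 (- strand).
Lamb1: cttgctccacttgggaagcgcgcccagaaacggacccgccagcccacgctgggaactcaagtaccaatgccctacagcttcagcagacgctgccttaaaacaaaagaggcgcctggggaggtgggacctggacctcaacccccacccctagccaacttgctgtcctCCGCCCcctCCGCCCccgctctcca
Lamb2: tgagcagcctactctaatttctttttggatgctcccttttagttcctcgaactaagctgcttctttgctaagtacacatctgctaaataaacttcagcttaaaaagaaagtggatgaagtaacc
Itgb5: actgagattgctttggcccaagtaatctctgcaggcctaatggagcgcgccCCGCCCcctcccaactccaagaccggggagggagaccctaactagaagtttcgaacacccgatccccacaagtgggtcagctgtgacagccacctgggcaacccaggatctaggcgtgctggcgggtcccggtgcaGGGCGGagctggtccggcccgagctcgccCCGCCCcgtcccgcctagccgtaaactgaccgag
Itga5: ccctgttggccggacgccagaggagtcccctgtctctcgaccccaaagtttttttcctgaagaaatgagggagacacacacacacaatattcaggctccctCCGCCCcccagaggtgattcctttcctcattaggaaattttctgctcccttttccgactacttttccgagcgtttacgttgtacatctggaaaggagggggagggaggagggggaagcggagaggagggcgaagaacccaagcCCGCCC
A GC box stood in the 250-base window of 8 of the 23 members with a RefSeq promoter, in 9 of their 26 windows, and in 32.7% of all 32851 windows. Lamb1, Itgb5 and Itga5 held it and Lamb2 did not. The printed stretch ends 59 bases before the RefSeq start for Lamb1 and 126 bases before it for Lamb2, so these stretches do not cover the same positions. In GENCODE vM21 both genes begin right after the printed stretch, so the rest of each window lies inside the annotated gene. The lack of a GC box in the Lamb2 window thus does not describe the full sequence upstream of the annotated gene. GC content was 62.0% for Lamb1 and 43.6% for Lamb2 over the whole windows. The AP-1 letters TGANTCA were found for 1 member, Itgax (6.75% of all windows), the ETS letters CCGGAAG for 1, Itga3 (6.91%), and the forkhead letters GTAAACA and the TATA box TATAAA for 0 members (3.17% and 12.4%). Both strands were searched, motifs could overlap, and a match is a description only.

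Of the RGD-binding and alpha v family, 7 of 8 members were tested. Itgav itself, the alpha v subunit, was at 231, 245 and 257 CPM with DMSO and at 229, 202 and 236 CPM with the combination (blocked log2 fold change -0.14, SE 0.09, edgeR adjusted p = 0.202). Its beta partners differed from one another. Itgb8 was at 5.62, 1.18 and 1.24 CPM with DMSO and at 23.9, 40.8 and 22.6 CPM with the combination, with no overlap between groups (unpaired log2 fold change 3.44, SE 0.70, edgeR adjusted p = 0.0106; blocked 3.68, SE 0.52, adjusted p = 0.000255). The unpaired adjusted p was 0.118 without A1129 and 0.177 without A1471. Itgb5, a vitronectin receptor subunit, was at 156, 19.5 and 65.1 CPM with DMSO and at 361, 89.5 and 128 CPM with the combination. It was higher in 3 of 3 lines although the groups overlapped across lines (blocked log2 fold change 1.48, SE 0.21, edgeR adjusted p = 0.000291; unpaired 0.438). Itgb3, the platelet and osteoclast beta subunit, was at 75.7, 6.97 and 4.21 CPM with DMSO and at 70.7, 0.439 and 2.04 CPM with the combination and was not called (blocked adjusted p = 0.158). Per kb, Itgb5 was the most abundant of Itgb3, Itgb5, Itgb6 and Itgb8 in all 12 libraries, and the share of Itgb8 was 1.02 ± 0.509% with DMSO and 6.63 ± 5.53% after both inhibitors (SD, n = 3).

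Itga5 was at 417, 183 and 308 CPM with DMSO and at 245, 84.4 and 133 CPM with the combination. It was lower in 3 of 3 lines and called in the blocked fit only (log2 fold change -1.03, SE 0.11, edgeR adjusted p = 5.93e-05; unpaired 0.197). Itga8, a nephronectin receptor subunit, had changes of -2.94, -0.36 and 1.80 by line and was not called (blocked edgeR adjusted p = 0.854). Of its exons, 5.05% lie opposite an antisense transcript, E030013I19Rik, and the use of strand in counting is not given in the sources used here. Itga2b, the platelet alpha subunit, was called higher in the blocked fit (log2 fold change 0.81, SE 0.19, edgeR adjusted p = 0.00446), at 1.93 to 5.70 CPM with DMSO and 3.26 to 10.2 CPM with the combination.

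**Figure D4:**
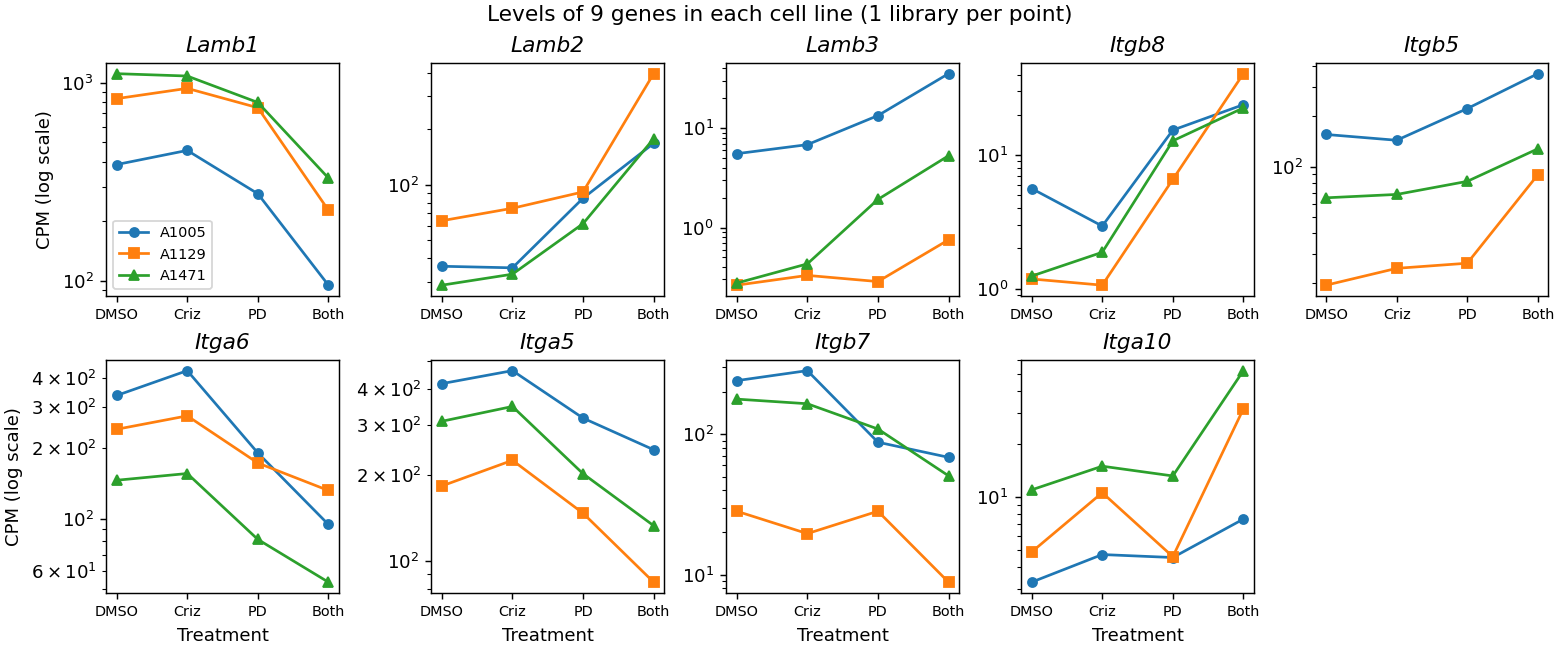
CPM of 9 integrin and laminin genes on a log scale by treatment (Criz, Crizotinib; PD, PD173074; Both, the combination), with 1 curve for each cell line and 1 library per point. Lamb1, Itga5 and Itga6 are lowest, and Lamb2, Lamb3, Itgb5, Itgb8 and Itga10 highest, with the combination in each of the 3 cell lines.

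All 4 laminin-binding integrin subunits were tested, and the blocked fit called 2 of them lower and 1 higher with the combination. Of all tested genes, that fit called 26.2% lower and 28.6% higher. Itga6, the subunit of hemidesmosomes and a widely used mammary stem cell marker, was at 336, 241 and 146 CPM with DMSO and at 94.5, 132 and 53.6 CPM with the combination. No combination library reached its lowest DMSO value (blocked log2 fold change -1.36, SE 0.18, edgeR adjusted p = 0.000164; unpaired 0.0951). Itga3 was at 502, 577 and 452 CPM with DMSO and at 301, 313 and 343 CPM with the combination, again without overlap (blocked log2 fold change -0.66, SE 0.21, edgeR adjusted p = 0.0201; unpaired 0.0950). Itga7, the muscle laminin receptor, was called higher (blocked log2 fold change 1.01, SE 0.32, adjusted p = 0.0221), from 3.28, 15.3 and 2.07 CPM to 4.28, 26.6 and 8.22 CPM. Summed over Itga3, Itga6 and Itga7, the level was 117 ± 18.6 CPM per kb with DMSO, 133 ± 39.1 with Crizotinib and 67.9 ± 4.5 with the combination (SD, n = 3), and it ran from 61.6 to 96.6 with PD173074. Itgb4 was not called, with at most 65 counts in a library.

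Of the collagen-binding subunits, 3 of 4 were tested and Itga10, a cartilage collagen receptor subunit, was called higher in the blocked fit (log2 fold change 2.14, SE 0.32, edgeR adjusted p = 0.000332; unpaired 0.0848). It was at 3.28, 4.87 and 11 CPM with DMSO and at 7.5, 31.8 and 52.5 CPM with the combination. Exons of Gm42957 overlap 33.5% of its exon length on the same strand, so its counts and level are uncertain. Itga1 and Itga2, the other collagen receptor subunits, were not called (blocked adjusted p = 0.143 and 0.175), and the changes of Itga2 were 1.90, -1.38 and 2.31 by line.

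Of the leukocyte, alpha 4 and alpha 9 group, 2 of 9 members were tested, and both were called lower in the blocked fit. That fit called 26.2% of all tested genes lower with the combination. Itgb7, which pairs with alpha 4 and alpha E in lymphocytes, was at 241, 28.3 and 178 CPM with DMSO and at 68.5, 8.84 and 50.6 CPM with the combination (blocked log2 fold change -1.77, SE 0.30, edgeR adjusted p = 0.000778; unpaired 0.300). The changes were -1.81, -1.66 and -1.81 in the 3 lines. Its partners Itga4 and Itgae were at 0 and at most 10 counts in any library. Itgb2, the beta subunit of the leukocyte integrins, was at 14.1, 1.97 and 5.53 CPM with DMSO and at 6.84, 1.5 and 0.453 CPM with the combination (blocked log2 fold change -1.33, SE 0.46, edgeR adjusted p = 0.0301; unpaired 0.466), while its partners Itgal, Itgam, Itgax and Itgad had at most 14 counts in a library. Itgb1 was not called, with 685, 930 and 915 CPM with DMSO and 642, 829 and 979 CPM with the combination (blocked log2 fold change -0.05, SE 0.09, edgeR adjusted p = 0.657).

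**Figure D5:**
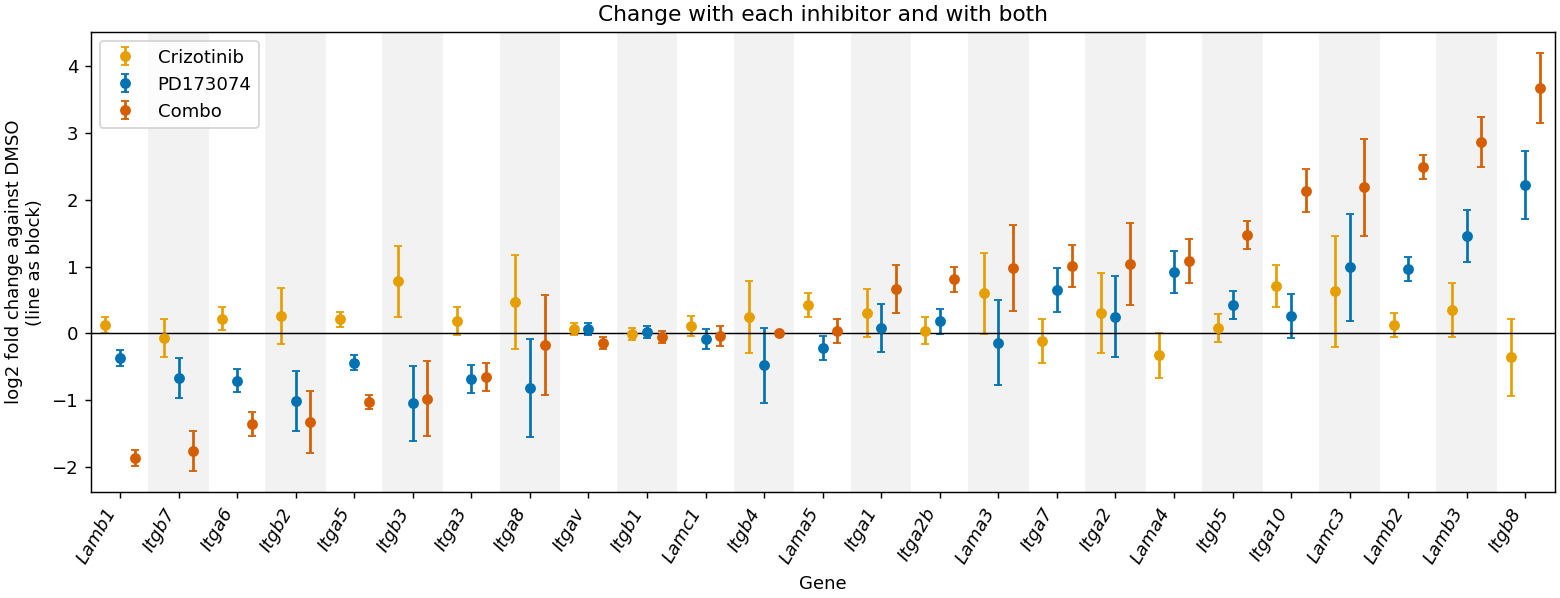
Blocked log2 fold change against DMSO for Crizotinib, PD173074 and the combination in 25 of the 26 tested genes, with bars of 1 SE (no bar where the estimate is within 0.005 of 0). The DMSO libraries are shared by the 3 comparisons, and Crizotinib points lie nearest to 0 for Lamb1, Lamb2, Itgb7 and Itgb5.

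Against Crizotinib alone, the unpaired edgeR fit called Lamb2 and Itgb8 higher (5.40% of all tested genes were higher) and Itga3 lower (7.78%) with the combination. Itga3 was at 717, 565 and 441 CPM with Crizotinib, above all 3 combination libraries (log2 fold change -0.85, SE 0.24, edgeR adjusted p = 0.0470), but leaving out A1005, A1129 or A1471 gave an unpaired adjusted p of 0.163, 0.183 or 0.181. The log2 fold change was 2.37 for Lamb2 (SE 0.47, edgeR adjusted p = 0.00979; 0.0517 without A1005 and 0.124 without A1471) and 3.89 for Itgb8 (SE 0.71, adjusted p = 0.00699; 0.0876 without A1129 and 0.140 without A1471). The blocked fit called 9 members higher (27.4%) and 7 lower (26.0%). Itgb3 had a blocked log2 fold change of -1.77 (SE 0.56, edgeR adjusted p = 0.0216; unpaired 0.863), with changes of -0.48, -4.70 and -1.64 by line. The blocked value was -3.09 without A1005 and -0.89 without A1129, and the call was lost without A1471 (edgeR adjusted p = 0.125). These comparisons share the combination libraries with those against DMSO.

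Against PD173074 alone, the unpaired edgeR fit called 0 members (0.838% of all tested genes were higher and 3.93% lower), while DESeq2 called 2 and limma-voom 0. At an unadjusted p under 0.05 the unpaired edgeR fit had 3 members and 2612 of the 13836 tested genes. The blocked fit called 7 members higher (19.6%), among them Itga2b, Itga10, Itgb5, Itgb8, Lamb2 and Lamb3, and 4 lower (20.2%), Itga5, Itga6, Itgb7 and Lamb1, with 7 called without A1129 and 6 without A1471. Lamb1 was at 276, 748 and 795 CPM with PD173074, and its blocked log2 fold change from there to the combination was -1.5 (SE 0.12, edgeR adjusted p = 1.54e-05). Lamb2 changed by 1.53 (SE 0.18, adjusted p = 0.000186). Itga3 was at 233, 431 and 296 CPM with PD173074 and was not called between these groups, with a blocked log2 fold change of 0.02 (SE 0.21, adjusted p = 0.941).

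The departure from additivity compares the combination with the sum of both single changes on the log2 scale. The unpaired edgeR fit called 0 members (0.00723% of all tested genes were above the sum and 0.911% under it), and DESeq2 and limma-voom called 0. At an unadjusted p under 0.05 the unpaired edgeR fit had 1 member and 1250 of the 13836 tested genes. The blocked fit called 3 members above the sum (5.46%) and 3 under it (10.7%). Lamb2 was above it by 1.39 (SE 0.25, edgeR adjusted p = 0.00612) and Itgb5 by 0.97 (SE 0.30, adjusted p = 0.0495). Lamb1 departed by -1.63 (SE 0.17, edgeR adjusted p = 0.000223), Itga6 by -0.87 (SE 0.25, adjusted p = 0.0392) and Itga5 by -0.79 (SE 0.16, adjusted p = 0.0107). All 6 departures had the same sign in 3 of 3 lines, but the blocked count was 1 without A1471, 2 without A1129 and 5 without A1005. Itgb8 was not called for a departure (blocked log2 value 1.81, SE 0.73, adjusted p = 0.117).

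Other genes of the pathway were followed by lists that hold no member. The lists were chosen with earlier results of these data known, so their shares beside those of all tested genes are a description only. Of 30 tested integrin activators and adhesion adaptors, 5 were called higher and 3 lower with the combination in the unpaired edgeR fit (15 and 6 in the blocked fit). These are 16.7% and 10% of the list unpaired, where 6.10% and 8.28% of all tested genes were called, and 50% and 20% blocked, where 28.6% and 26.2% were. The median log2 fold change was 0.37, against 0.02 over all tested genes. Tns1, a tensin that binds integrin tails, was at 41.6 ± 23.3 CPM with DMSO and 187 ± 69.2 CPM after both inhibitors (SD, n = 3; log2 fold change 2.17, SE 0.56, edgeR adjusted p = 0.0302). Tln2, a talin that activates integrins, was at 18.7 ± 7.36 and 60.9 ± 18.3 CPM (edgeR adjusted p = 0.0454), and Kank2, which binds talin, at 65.5 ± 20.4 and 183 ± 16.3 CPM (adjusted p = 0.0162). Parvb, a parvin that joins integrin-linked kinase to actin, was at 141 ± 39.6 and 38.7 ± 19.6 CPM (log2 fold change -1.86, SE 0.40, edgeR adjusted p = 0.0148), and Pxn, the adaptor paxillin, at 196 ± 22.3 and 141 ± 8.68 CPM (adjusted p = 0.0313).

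Of 16 tested basement membrane and laminin partners, 2 were called higher and 0 lower (9 and 2 in the blocked fit), with a median log2 fold change of 0.85. The unpaired shares were 12.5% higher and 0% lower (6.10% and 8.28% of all tested genes), and the blocked shares 56.2% and 12.5% (28.6% and 26.2%). The unpaired calls were Agrn, the proteoglycan agrin, at 102 ± 10.3 and 188 ± 62.0 CPM (edgeR adjusted p = 0.0325), and Dag1, the laminin receptor dystroglycan, at 299 ± 68.6 and 519 ± 48.5 CPM (adjusted p = 0.0253). Of 17 tested integrin ligands, 2 were called higher and 1 lower (10 and 4 in the blocked fit), with a median log2 fold change of 1.17. The unpaired shares were 11.8% higher and 5.88% lower (6.10% and 8.28% of all tested genes), and the blocked shares 58.8% and 23.5% (28.6% and 26.2%), so that the share called lower was near the background in both fits. Vcam1, a ligand of alpha 4 integrins, was at 12.4 ± 4.67 and 123 ± 118 CPM (log2 fold change 3.31, SE 0.96, edgeR adjusted p = 0.0458). Spp1, osteopontin, a ligand of alpha v integrins, was at 4310 ± 3060 and 542 ± 337 CPM (log2 fold change -2.99, SE 0.70, adjusted p = 0.0206). Of 8 tested hemidesmosome and tetraspanin partners, the blocked edgeR fit called 2 higher and 3 lower and the unpaired fit 0. At an unadjusted p under 0.05 the unpaired fit had 3 of these 8 and 4002 of the 13836 tested genes. The blocked shares of 25% higher and 37.5% lower stood beside 28.6% and 26.2% of all tested genes.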

How the data were processed

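Total RNA of 12 tumoursphere libraries, 1 for each of 3 cell lines and 4 treatments, was sequenced on a NextSeq500. The authors deposited the raw count of reads for each gene, with no normalization. The submitters' processing notes name bcl2fastq, STAR, HTSeq and build mm10, whereas versions, use of strand and annotation release are not given in the sources used here. The study's methods name DESeq2 and limma in an unpaired design.

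Genes were kept by filterByExpr at a minimum count of 10 and a total of 15, and TMM factors were used. The main test was edgeR's quasi-likelihood F test (version 4.0.16, R 4.3.3) on all 12 libraries, with Benjamini-Hochberg adjustment over 13836 genes, two-sided, and a threshold of 0.05. The SE is the absolute log2 fold change divided by the square root of F. Changes within a line used log2 CPM with a prior count of 2. Exon lengths came from GENCODE vM21, which holds 55480 of the 55573 genes. Alternatives were a block for the line, DESeq2 1.42.0, limma-voom (limma 3.58.1), DESeq2 size factors, no filter, only the groups compared and leaving out each line. The code was tested on simulated data. Plots used matplotlib 3.10.9 in Python 3.11.15.

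The labels name the cell line of each library, and this gives the pairing. Libraries of 1 line deviated together from their treatment means (correlation across genes 0.766 to 0.962 over 18 pairs, mean 0.871). The mean over 36 pairs of different lines was -0.422. This negative value follows from centring each treatment on its own lines and is no separate evidence of pairing. With 1 library per line and treatment, unpaired p-values set each change against the spread between lines. Blocked p-values set each change against the spread left after the shared line differences, estimated over all 4 treatments. In that spread, treatment changes that differ between lines cannot be told apart from differences between single libraries. Total counts of 13031492 to 17750476 set the precision of each value. The members were named, except 1 tested member, which is counted among the calls but not reported here. The lists and members were chosen with earlier results of these data known, and in the 4 lists of other genes those called in the unpaired fit were named if their mean log2 CPM reached 3, at most 3 in each direction.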

Additional observations from a re-analysis of the deposited data

Results flagged for a closer look

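The change with the combination had opposite signs in different lines, with a log2 size of at least 1 each way, for 3 tested members, and the difference between lines was not tested because each line had 1 library per treatment. Itga2 changed by 1.90, -1.38 and 2.31 in A1005, A1129 and A1471, a gap of 3.69 between the highest and the lowest line, on 14 to 360 counts with DMSO or the combination. Itga8 changed by -2.94, -0.36 and 1.80, a gap of 4.74, and its counts went from 513 to 92 in A1005 and from 1080 to 3451 in A1471. Itgb4 changed by -1.30, 0.21 and 2.72, a gap of 4.02, but the rise in A1471 was from 0 to 10 counts and the drop in A1005 from 43 to 23.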

How the results depend on the processing

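The block changed the counts most. For the combination against DMSO, edgeR called 2 members without the block, 16 with it, and 16 each with the block in limma-voom, DESeq2 or edgeR with DESeq2 size factors (these 3 were chosen after seeing the data). Unpaired DESeq2 called 6, and a fit of only the groups compared called 1. Leaving out 1 line gave 0 to 3 without the block (0 without A1471 and 1 without A1129) and 11 to 16 with it. Against Crizotinib, the 3 members became 5 with DESeq2, 16 with the block, 16 with the block in limma-voom or with size factors and 17 with the block in DESeq2, and leave-one-out fits gave 0 to 2 without and 14 to 16 with the block. Against PD173074, the 0 members became 2 with DESeq2 and 11 with the block in each of the 4 tools, and leave-one-out fits gave 0 to 1 and 6 to 10. The departure from additivity went from 0 to 6 with the block in edgeR, limma-voom or with size factors and to 8 in DESeq2, and leave-one-out fits gave 0 without and 1 to 5 with the block. PD173074 against DMSO went from 0 to 1 with the block, 2 in limma-voom, 6 in DESeq2 and 1 with size factors, and leave-one-out fits gave 0 to 1. Crizotinib stayed at 0 in every fit.

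For all tested genes, the calls of the combination against DMSO went from 1990 to 7578 with the block, 3032 with DESeq2, 1160 of 28504 with no filter, 594 with only the groups compared and 120 to 2021 in leave-one-out fits. Against Crizotinib, 1823 became 7389, 2930, 1146, 616 and 109 to 1835 in the same order, and against PD173074, 660 became 5506, 1556, 401, 117 and 60 to 627. The departure went from 127 to 2241 with the block, 459 with DESeq2, 66 with no filter and 0 in leave-one-out fits, and needs all 4 groups, so it was not run with only the groups compared. PD173074 against DMSO went from 0 to 296 with the block and 17 with DESeq2. The leave-one-out ranges over all genes above are without the block. With it, they were 5153 to 6823 for the combination against DMSO and 4880 to 6545 against Crizotinib. They were 2352 to 4734 against PD173074 and 423 to 1679 for the departure. For the combination against DMSO, the block gave 7651 calls in limma-voom, 7357 in DESeq2 and 7611 with size factors, of 13836 genes. The 50 results of single members computed under alternatives were those called in the unpaired or the blocked edgeR fit, so they were chosen for clear changes. They kept their sign in all 741 alternatives, which include the blocked fit itself. Members that were not called could change sign. Itga8 had a log2 fold change of 0.56 unpaired and -0.18 blocked in the combination against DMSO. DESeq2 gave no adjusted p for Lama4 and Lamc3 in the combination against DMSO. Depth limits the 11 members that did not pass the filter, and values that rest on few counts in a line (Lama4, Lamb3, Lamc3, Itgb4).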
